A study of Mus musculus with 4 samples.

Results

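The genes for the histones that package newly replicated DNA were read in bulk RNA-seq libraries from mouse lungs carrying triple-negative breast cancer (TNBC) metastases. Members were the protein-coding genes of the deposited table whose symbol marks a linker histone (H1f) or a clustered core histone (H2ac, H2bc, H3c or H4c). This rule found 69 of the 56748 genes. They comprised 11 genes of class H1, 17 of H2A, 17 of H2B, 12 of H3 and 12 of H4, and 54 of them lay on chromosome 13 and 10 on chromosome 3. The symbol pattern also took in 5 linker histones that are not replication-dependent genes, H1f0, H1f7, H1f8, H1f9 and H1f10, so values are given for all 69 members and for the 64 others, called the clustered histone genes below.

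All mice were BALB/cJ females injected through the tail vein at 7 weeks of age with 4T1-FLuc, a mouse TNBC line that carries firefly luciferase. There were 2 libraries of control mice, called the saline group here. Their injection is named saline in the study's methods and PBS in the sample labels. The cmLumiOpto/PARPi group (2 libraries) received cmLumiOpto, a light-driven mitochondrial gene therapy, together with the PARP inhibitor olaparib at 50 mg/kg for 3 weeks. The cmLumiOpto construct was carried by an adeno-associated virus inside exosomes coated with an antibody to CD276, was driven by the cfos promoter and was lit by the luciferase substrate ViviRen. No library came from mice given only 1 of the treatments, so the effects of the gene therapy and of olaparib cannot be told apart here. The labels describe harvested tumour cells and the methods lung tissue with metastasis. All 8 markers of the 4T1 epithelium, all 8 of airway cells and all 8 of alveolar type 2 cells were read in every library. These readings do not settle which description holds.

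In dividing cells, the core histones H2A, H2B, H3 and H4 form the spool around which DNA winds, and H1 sits on the linker DNA between spools. Their replication-dependent genes are switched on together in S phase. Their mRNAs are the exception among mRNAs of animal cells, since they end in a stem-loop bound by the protein SLBP and usually lack a poly(A) tail. When a cell leaves the cycle, some of these genes also yield longer, polyadenylated transcripts that read past the stem-loop. The libraries were made from RNA caught on poly-T beads, so what was counted was the part of the histone mRNA that such beads retain.

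The stem-loop was sought in the annotated transcripts (GENCODE M21, GRCm38) downstream of the stop codon. Its place relative to the annotated end shows how much sequence past the stem-loop is annotated. It was found in 43 of the 64 clustered histone genes in 8 forms. The commonest form, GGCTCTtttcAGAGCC, was shared by 24 genes of the H1, H2A, H2B and H3 classes. Genes of class H4 carried forms of their own, of which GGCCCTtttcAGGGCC was found in 6 genes. In each class, the member with a stem-loop and the highest level per kilobase of gene model is shown, as is the next in H4. Each is given with 4 flanking bases on each side, the paired stem in capitals and the loop in lower case.
H1f2: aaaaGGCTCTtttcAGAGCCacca
H2ac8: caaaGGCTCTtttcAGAGCCattc
H2bc11: caaaGGCTCTtttcAGAGCCacgc
H3c8: taaaGGCTCTtcttAGAGCCaccc
H4c9: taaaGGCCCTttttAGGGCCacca
H4c8: caaaGGCCCTtttcAGGGCCgccc
In GRCm38, the stem and loop of H1f2 lay at chr13:23739512-23739527 on the plus strand, 24 bases after the stop codon, and the annotated transcript ran on for 840 bases. The H4c9 stem-loop lay at chr13:22040966-22040981 on the minus strand with 330 annotated bases behind it. By contrast, the annotation ended 46 bases after the stem-loop of H4c8, at chr13:23531458-23531473 on the plus strand, and 23 bases after that of H2bc11, at chr13:22043638-22043653 on the plus strand.

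Total counts were 15263375 to 16755228 per library, and 3 counts corresponded to 0.173 to 0.204 CPM (reads of a gene per 1000000 reads of the library, scaled with TMM factors). Across the table, 15167 genes passed the low-count filter and none passed an adjusted p of 0.05 in edgeR's quasi-likelihood test, whose smallest adjusted p was 0.138. At an unadjusted p under 0.05, 3221 genes passed, and DESeq2 called 1011 genes. With 2 libraries a group, an exact permutation test of a single value cannot give a two-sided p below 0.33. The labels do not say whether the libraries of a group came from separate mice, so p-values measure the spread between these libraries.

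Most of these histone genes were at or near the detection limit. Of the 69 members, 12 had no count in any library, 32 had at most 3 counts in every library, and 11 averaged at least 10 counts. The median member averaged 2.25 counts over the 4 libraries. The 64 clustered histone genes together held 57.9 and 71.6 CPM in the saline group and 86.3 and 85.3 CPM after cmLumiOpto/PARPi, before TMM scaling. H1f0 alone took 94.6% and 95.5% of all counts of the 69 members in saline and 87.6% and 93.2% after treatment. Among the clustered histone genes, H1f2 took 64.8% and 68.3% of the counts in saline and 47.2% and 54.9% after treatment.

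**Figure D1:**
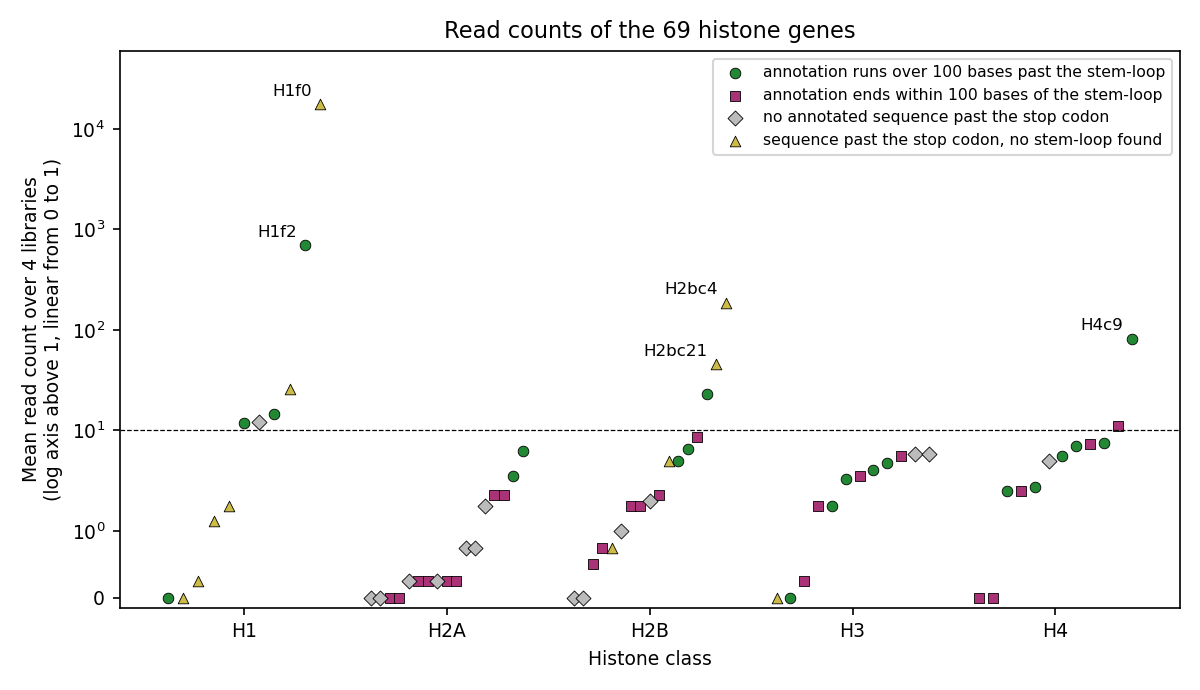
Mean read count of each of the 69 histone genes over the 4 libraries (vertical axis, logarithmic above 1 and linear below), grouped by histone class, with marker shape and colour giving the annotated 3′ end. The dashed line marks 10 counts, which 11 genes reached, and every H2A and H3 gene lies under it.

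Counts differed with the annotated 3′ end. The 20 clustered genes annotated over 100 bases past the stem-loop had a median mean count of 5.25, and 5 of them averaged at least 10 counts. The 23 genes annotated to end within 100 bases of the stem-loop had a median of 1.75, and 1 of them, H4c8, reached 10. The 15 genes with no annotated sequence past the stop codon had a median of 0.75, and 1 of them, H1f5, reached 10. The remaining 6 genes had sequence past the stop codon without a stem-loop of the form sought, with a median of 3.12, and included H2bc4 and H2bc21. A poly(A) signal (AATAAA or ATTAAA in the last 50 bases of the transcript) was found in 14 genes, whose median mean count was 5.88, against 1.75 for the 50 without it.

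Gene length moved with the same split. The 16 clustered genes longer than 1000 bases had a median mean count of 5.25, and the 48 shorter genes 1.75. Small nuclear RNAs and other listed RNAs made without a tail were also read. Of 1441 such rows in the table, 1339 had no count, and the sum of all of them was 5.71 and 7.77 CPM in saline and 7.25 and 8.06 CPM after treatment. The 55 clustered histone genes that did not pass the low-count filter summed to 7.59 and 7.5 CPM in saline and 8.75 and 8.78 CPM after treatment. Whether a missing tail set either level was not tested.

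Near-identical copies limit what a count of a single histone gene means. All 12 H4 genes encode the same protein of 103 residues, initiator methionine included, although their coding sequences were as little as 87.8% identical. In H2A, 9 of 17 genes encode 1 protein, in H3 7 of 12, and in H2B the commonest protein is encoded by 4 of 17. At least 1 stretch of 100 bases in the transcript was shared exactly with another gene for 57 of the 69 members. The median share of such stretches was 65.3% in H2A, 49.8% in H3, 40.1% in H2B, 25.4% in H4 and 0.396% in the clustered H1 genes. How the counting treated reads that match several genes is not given in the sources used here, so class sums are given beside the values of single genes.

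H1 linker histones gave nearly all of the signal. H1f0, the linker histone of differentiated and slowly dividing cells, has a polyadenylated mRNA and stood at 1047 and 1601 CPM in saline and 604 and 1190 CPM after treatment. Its libraries overlapped between groups, and the log2 fold change was -0.56 with a standard error of 0.37 (adjusted p = 0.416). With 1 library left out it ran from -1.15, without cmLumiOpto/PARPi replicate 2, to -0.15, without cmLumiOpto/PARPi replicate 1. Per kilobase of gene model its mean level was 540 CPM per kb, against 28.0 CPM per kb for H1f2, the next member. H1f0 is annotated at chromosome 15:78912650-78914704 in the coordinates of the table, which are those of mm39 according to the labels.

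H1f2 (also Hist1h1c) is a replication-dependent linker histone known to yield a polyadenylated form as well. It had 604 and 747 counts in saline and 682 and 773 after treatment, or 37.9 and 50.9 CPM against 39.3 and 46.5 CPM. The treated libraries lay inside the range of the saline libraries, with a log2 fold change of -0.05 and a standard error of 0.20 (adjusted p = 0.909). Its direction turned with the scaling, since upper-quartile factors, which raise the median log2 fold change of all genes by 0.11, gave 0.06.

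H1f5 and H1f3 were higher in both treated libraries at very low counts. H1f5 had 4 and 6 counts in saline and 14 and 24 after treatment, a log2 fold change of 1.75 with a standard error of 0.67 (adjusted p = 0.219). H1f5 passed the low-count filter, which here required 0.614 CPM in 2 libraries, only through its treated libraries. H1f3 had 7 and 11 counts in saline and 19 and 21 after treatment (log2 fold change 0.98, standard error 0.57, adjusted p = 0.364). H1f10, a replication-independent linker histone, had 21 and 13 counts in saline and 32 and 37 after treatment (log2 fold change 0.88, standard error 0.49, adjusted p = 0.345). After removal of the trend of fold change with gene length and level, the log2 fold changes of H1f5, H1f3 and H1f10 were 1.30, 0.67 and 0.44.

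H1f4 had 13 and 8 counts in saline and 12 and 14 after treatment, and its groups overlapped (adjusted p = 0.892). H1f1 had at most 3 counts in any library. H1f6, the linker histone of spermatocytes, and H1f7, a linker histone of spermatids, had no count. H1f8, the linker histone of oocytes, had at most 2 counts, and H1f9, another linker histone of spermatids, had 1 count in all. The 6 clustered H1 genes summed to 39.6 and 52.6 CPM in saline and 41.9 and 50.2 CPM after treatment, so the treated libraries again lay within the saline range.

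H2A genes were barely read. The 17 genes summed to 21 and 15 counts in saline and 26 and 14 counts after treatment, and none passed the low-count filter. These sums overlapped, at 1.32 and 1.02 CPM against 1.5 and 0.842 CPM. H2ac8 had the highest level per kilobase of the class, 0.551 CPM per kb, with 6 and 6 counts in saline and 6 and 7 after treatment. H2ac23 had 5 and 3 counts in saline and 0 and 1 after treatment, but 92.7% of its 100-base stretches occur in other genes. H2ac15 had 2 and 0 counts in saline and 5 and 0 after treatment, so its reads came from 1 library of each group. H2ac1, the H2A gene of testis, had no count. A transcript on the opposite strand overlaps exons of H2ac8, H2ac23 and H2ac15, and whether the counting used strand is not given in the sources used here.

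Of the class sums, that of H2B differed most between groups. The 17 H2B genes summed to 8.84 and 11.9 CPM in saline and 29.8 and 19.9 CPM after treatment, a log2 ratio of group means of 1.26 with groups that did not overlap. Most of it came from H2bc4 (Hist1h2bc), at chromosome 13:23868182-23876891 on the plus strand in the table. H2bc4 had 72 and 100 counts in saline and 353 and 222 after treatment, or 5.66 ± 1.63 CPM against 16.8 ± 4.92 CPM (SD, n = 2 each). Both treated libraries were higher than both saline libraries.

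The log2 fold change of H2bc4 was 1.57 with a standard error of 0.34 and an adjusted p of 0.138 in edgeR. H2bc4 therefore did not pass the threshold in edgeR. It was the only member that passed in DESeq2 (adjusted p = 0.00495), where 1011 of 15167 genes passed over all genes. DESeq2 gave no adjusted p for 6 of the 11 tested members because of their low counts. Leaving out each library in turn gave log2 fold changes of 1.24 to 1.88 and adjusted p-values of 0.111 to 0.369. H2bc4 is annotated with 2 exons and without a stem-loop of the form sought, and it shares 25.4% of its 100-base stretches with other genes.

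H2bc21 (Hist2h2be), on chromosome 3 at 96128435-96131054, had 18 and 33 counts in saline and 80 and 52 after treatment (log2 fold change 1.20, standard error 0.51, adjusted p = 0.249). It shares no 100-base stretch with another gene, and its groups did not overlap. H2bc6 had 21 and 6 counts in saline and 43 and 21 after treatment, and its groups overlapped (log2 fold change 1.10, standard error 0.71, adjusted p = 0.408). Exons of H2bc6 overlap those of H1f4 on the same strand, so reads of these 2 genes may not be separable. H2bc11 had 6 and 9 counts in saline and 10 and 9 after treatment. Without H2bc4, the H2B sum was 4.33 and 5.04 CPM in saline and 9.5 and 6.56 CPM after treatment, a log2 ratio of 0.78. H2bc1, the H2B gene of testis, had no count.

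H2B promoters are known for an octamer, ATTTGCAT, that binds the factor Oct-1. It was sought on both strands of the windows from 250 bases before to 50 bases after each start (RefSeq, GRCm38.p6), which were matched for 62 of the 69 members. The octamer was found in 7 of 14 H2B genes and 6 of 17 H2A genes, in none of the clustered H1, H3 and H4 genes, and in 1.97% of all 27025 genes with a window. The 13 genes shared 10 sites, since 3 sites lay between an H2A gene and an H2B gene and within the windows of both. The examples below show H2bc6, which passed the low-count filter, and the shared site of H2bc8 and H2ac8, each in the direction of its gene with the octamer in capitals.
H2bc6: gtaagacttaATTTGCATaagactgcct
H2bc8: tgagtcccttATTTGCATagaacctcta
H2ac8: tagaggttctATGCAAATaagggactca
The H2bc6 stretch lay at chr13:23586020-23586047 on the minus strand. The H2bc8 stretch, at chr13:23571331-23571358, is read on the plus strand for H2bc8 and on the minus strand for H2ac8. H2bc4 and H2bc21 were not among the genes with a matched window, so they are outside these counts. The sites counted for H2ac6 and H2ac20 lie between those genes and H2bc4 and H2bc21, their respective neighbours on the opposite strand. On the strand of H2bc4 and H2bc21 these sites read ATTTGCAT. Of the other letters sought, CCAAT was found in every matched clustered H1, H2A, H2B and H3 gene and in 27.3% of H4 genes, against 41.1% of all genes. TATAAA was found in 40% (H3) to 72.7% (H4) of a class, against 15.7% of all genes.

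H3 genes summed to 31 and 29 counts in saline and 35 and 50 after treatment, or 1.94 and 1.98 CPM against 2.01 and 3.01 CPM. None of the 12 genes passed the low-count filter. H3c10 had 7 and 8 counts in saline and 5 and 3 after treatment, H3c11 had 6 and 6 against 6 and 5, and H3c8 had 7 and 3 against 3 and 9. H3c10 and H3c11 were lower in CPM in both treated libraries, by counts too small for a test, and share 92% and 68.6% of their 100-base stretches with other genes. The highest count of any H3 gene in 1 library was 11, in H3c4.

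The 12 H4 genes summed to 108 and 103 counts in saline and 140 and 180 after treatment, or 6.77 and 7.02 CPM against 8.06 and 10.8 CPM. H4c9 (Hist1h4i) gave 59 and 65 of these counts in saline and 79 and 124 after treatment (log2 fold change 0.56, standard error 0.38, adjusted p = 0.427). H4c9 was higher in both treated libraries, and the first of them exceeded the saline libraries by little, with 4.55 CPM against 4.43 CPM. After removal of the trend of fold change with gene length and level, its log2 fold change was 0.12. H4c8 had 13 and 7 counts in saline and 12 and 12 after treatment, and its groups overlapped (adjusted p = 0.928). H4c18 had 3 and 13 counts in saline and 7 and 6 after treatment. The H4 sum without H4c9 was 3.07 and 2.59 CPM in saline and 3.51 and 3.37 CPM after treatment.

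**Figure D2:**
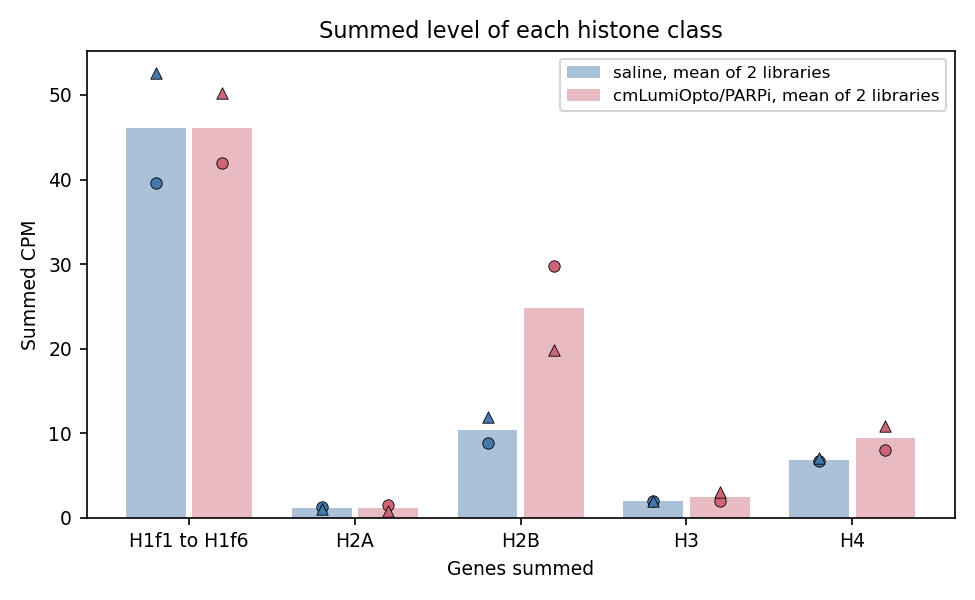
Summed CPM of each histone class (vertical axis, linear) in the saline and cmLumiOpto/PARPi groups, with bars at the mean of 2 libraries, circles for replicate 1 and triangles for replicate 2. The H1 bar holds H1f1 to H1f6. The 2 treated libraries lie at 29.8 and 19.9 CPM for H2B, above the saline libraries at 8.84 and 11.9 CPM, and H2A overlaps between groups.

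None of the 11 tested members passed the adjusted threshold in edgeR, as for all genes (0%), while 2 were higher at an unadjusted p under 0.05 (background 9.21%) and 0 were lower (background 12.0%). The treated libraries both exceeded the saline libraries for 6 of the 11, H2bc4, H2bc21, H4c9, H1f5, H1f3 and H1f10, against 27.4% of all genes tested. None of the 11 lay below in both, against 27.8% of all genes tested. Apart from H1f5, the members H1f3, H1f4, H2bc6 and H4c8 met the filter's level in only 1 saline library, so the 11 tested members are not a neutral sample of the 69.

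Of the 53 clustered histone genes with a count, 11 were higher in both treated libraries, 5 were lower in both and 37 overlapped, against 22.3% higher and 20.3% lower among all 25435 genes with a count. The 44 of these that did not pass the filter split into 6 higher, 5 lower and 33 overlapping.

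**Figure D3:**
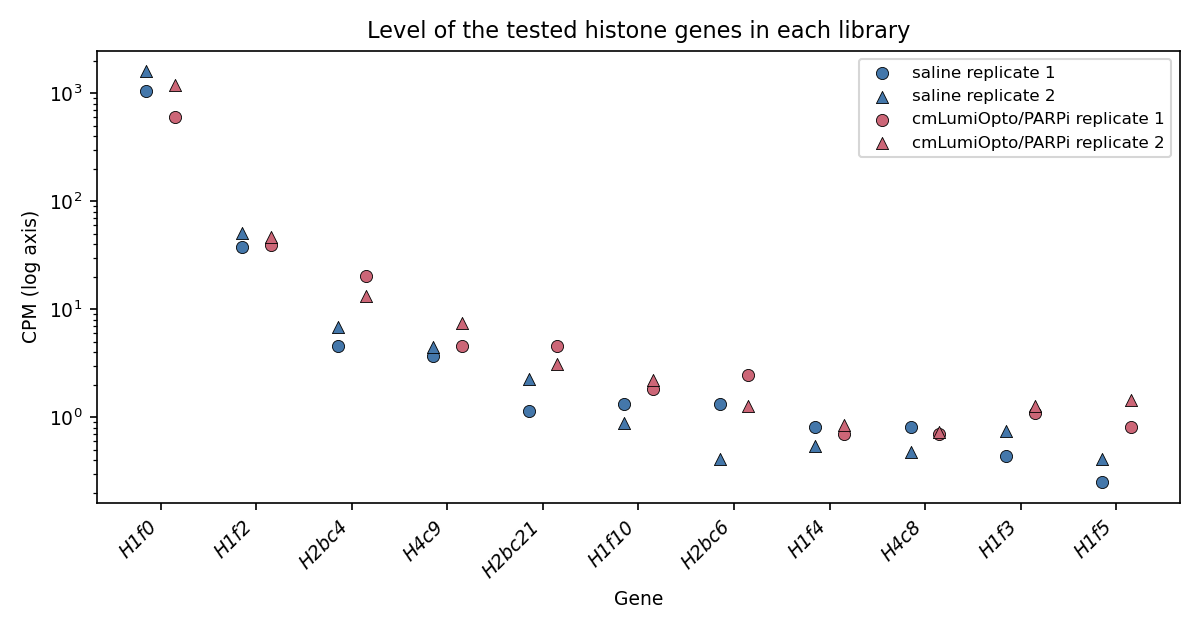
CPM (vertical axis, logarithmic) of the 11 tested histone genes in each of the 4 libraries, with saline in blue and cmLumiOpto/PARPi in red. H1f0 spans 604 to 1601 CPM, H1f2 lies between 37.9 and 50.9 CPM in every library, and the treated points of H2bc4 lie above the saline points.

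The median log2 fold change of the 11 tested members was 0.88, against 0.02 over all genes tested. It was 0.24 over the 57 members with a count, when no low-count filter was applied. Without cmLumiOpto/PARPi replicate 2 it was 0.14, over the 15 members that then passed the filter, so the genes differ from the 11. Short genes as a whole were higher after treatment: the 1016 tested genes of up to 1000 bases had a median of 0.36, and 494 of them were higher in both treated libraries. After removal of the trend of fold change with gene length and level, the median of the members was 0.44 and H2bc4 stood at 1.19. The summed level of the 64 clustered genes was 58.4 and 74.5 CPM in saline and 83.2 and 84.8 CPM after treatment, a log2 ratio of 0.34. For all 69 members, whose sum is set by H1f0, the log2 ratio was -0.50 and the groups overlapped, and the ratio ran from -1.03 to -0.12 with 1 treated library left out. In bulk samples, fewer cells of a type and less RNA per cell cannot be told apart.

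Histone variants that cells make outside S phase mostly have ordinary polyadenylated mRNAs. Of the 21 symbols listed, older and newer names together, 11 genes were in the table and tested, among them H1f0 and H1f10, which are also members by the symbol rule. None passed the adjusted threshold in edgeR. At an unadjusted p under 0.05, 2 were higher (background 9.21%) and 0 lower (background 12.0%). Their median log2 fold change was 0.17. H2aj, an H2A variant that accumulates in senescent cells and in luminal epithelium, stood at 31.7 and 24.1 CPM in saline and 59.7 and 50.1 CPM after treatment. Its treated libraries lay above both saline libraries, with a log2 fold change of 0.98 and a standard error of 0.20 (adjusted p = 0.138 in edgeR and 0.00442 in DESeq2).

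Cenpa, the H3 variant of centromeres, was at 62.0 and 67.4 CPM in saline and 81.0 and 91.8 CPM after treatment (log2 fold change 0.42, adjusted p = 0.188). H2az1, a variant placed at promoters, was at 275 and 254 CPM against 312 and 349 CPM (log2 fold change 0.32, adjusted p = 0.264). H2ax, whose phosphorylated form marks DNA breaks, was at 72.9 and 60.2 CPM against 66.4 and 70.8 CPM and overlapped between groups. Of the replacement H3.3 genes, H3f3a was at 452 and 515 CPM against 556 and 536 CPM (adjusted p = 0.533), and H3f3b overlapped at 1318 and 1653 CPM against 1092 and 1605 CPM. Per kilobase, H3f3b stood at 476 CPM per kb and the highest clustered H3 gene, H3c10, at 0.884 CPM per kb.

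Among 31 genes that transcribe histone genes or process histone mRNA, none passed the adjusted threshold in edgeR. In DESeq2 3 of them passed (1011 of 15167 over all genes). At an unadjusted p under 0.05 in edgeR, 5 were higher (background 9.21%) and 3 lower (background 12.0%). The median log2 fold change was 0.05, which turned to -0.06 without cmLumiOpto/PARPi replicate 2. Slbp, which binds the stem-loops shown above, was at 65.7 and 56.6 CPM in saline and 81.4 and 70.2 CPM after treatment, higher in both treated libraries (log2 fold change 0.31, standard error 0.15, adjusted p = 0.305). Npat, the coactivator of histone genes at the histone locus body, was at 35.9 and 35.4 CPM against 25.3 and 29.3 CPM, lower in both (log2 fold change -0.38, standard error 0.16, adjusted p = 0.249).

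Pou2f1, the gene of Oct-1, had the smallest p of the list. It was at 30.3 and 41.1 CPM in saline and 12.1 and 13.1 CPM after treatment. Its log2 fold change was -1.5 with a standard error of 0.22, which did not pass in edgeR (adjusted p = 0.138) and passed in DESeq2 (adjusted p = 4.32e-05). Snrpe, a protein of the Sm ring of spliceosomal and U7 small nuclear particles, had the smallest p in the other direction, at 58.6 and 56.2 CPM against 89.3 and 97.5 CPM (log2 fold change 0.70, adjusted p = 0.138 in edgeR and 0.00665 in DESeq2). Snrpd3, Snrpf and Snrpg, of the same ring, and Ncbp2, of the cap-binding complex, were the other genes higher at an unadjusted p under 0.05, and Cpsf1 and Sympk, of the cleavage machinery, the others lower.

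The parts particular to histone pre-mRNA processing gave values on both sides. Lsm10, a ring protein found only in the U7 particle, was at 11.3 and 8.99 CPM in saline and 15.5 and 14.2 CPM after treatment, higher in both treated libraries (adjusted p = 0.254). Its log2 fold change was 0.55, and 0.15 after the length correction. Lsm11, its partner, was at 12.7 and 13.3 CPM against 12.7 and 17.8 CPM and overlapped. Casp8ap2, another protein of the histone locus body, was at 22.9 and 29.2 CPM against 21.1 and 23.5 CPM and overlapped. Zfp473, a U7-associated zinc finger protein, had 20 and 14 counts against 16 and 13.

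**Figure D4:**
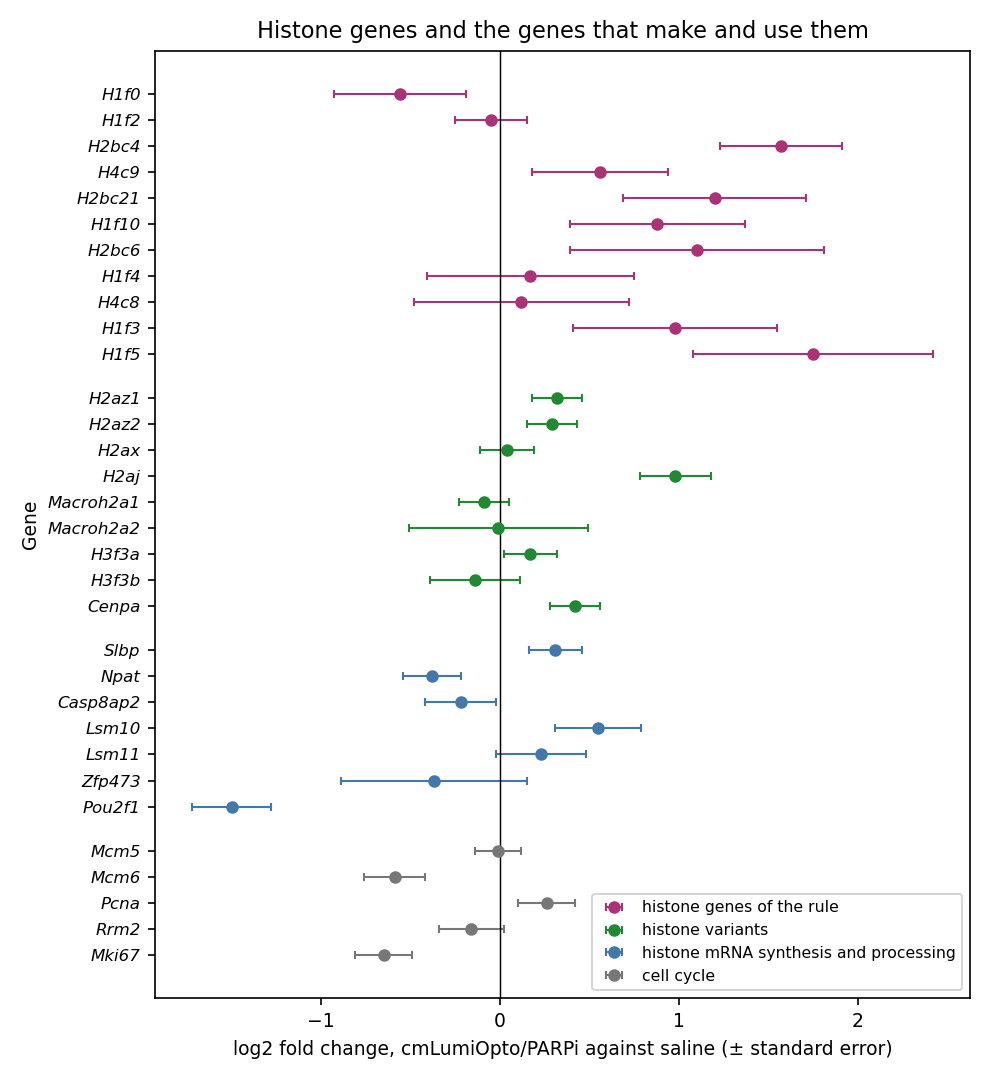
log2 fold change of cmLumiOpto/PARPi against saline (horizontal axis, bars are ± 1 standard error of the edgeR fit) for the 11 tested histone genes, histone variants, genes of histone mRNA synthesis and processing, and cell cycle genes. H2bc4 lies at 1.57 and H1f2 at -0.05, and the longest bars belong to the members with the fewest counts.

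Chaperones that carry histones to DNA were listed with the enzymes that acetylate them. Of 17 genes, 0 were higher (background 9.21%) and 4 lower (background 12.0%) at an unadjusted p under 0.05. None passed in edgeR and 1 passed in DESeq2 (1011 of 15167 over all genes). Their median log2 fold change of -0.16 was -0.06 after the length correction and -0.06 with upper-quartile factors. Supt16, a subunit of the FACT complex, was at 110 and 116 CPM in saline and 71.8 and 80.7 CPM after treatment (log2 fold change -0.57, adjusted p = 0.138 in edgeR, 0.0387 in DESeq2). Chaf1a, of the assembly factor CAF-1, was at 55.7 and 48.9 CPM against 35.8 and 39.4 CPM (log2 fold change -0.48, adjusted p = 0.179). After the length correction the log2 fold changes of Supt16 and Chaf1a were -0.41 and -0.24. Asf1b overlapped at 42.2 and 45.7 CPM against 40.7 and 54.7 CPM. Nasp, a carrier of free H3 and H4, was at 62.0 and 70.2 CPM against 71.1 and 83.2 CPM. Hat1, which acetylates new H4, had the smallest p among the higher genes (48.7 and 49.1 CPM against 55.8 and 63.4 CPM, log2 fold change 0.29).

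S-phase and mitotic genes were listed because the stem-loop form of histone mRNA is made while DNA is copied. Of 30 S-phase genes, 2 were higher (background 9.21%) and 5 lower (background 12.0%) at an unadjusted p under 0.05. None passed in edgeR, and 1 passed in DESeq2 (1011 of 15167 over all genes). Their median log2 fold change was -0.01, and 0.09 with upper-quartile factors. Mcm6, of the replicative helicase, was at 311 and 304 CPM in saline and 177 and 231 CPM after treatment (log2 fold change -0.59, adjusted p = 0.165 in edgeR and 0.0495 in DESeq2), and Prim1, of the primase, was at 25.8 and 29.3 CPM against 35.8 and 38.4 CPM (log2 fold change 0.43, adjusted p = 0.216). Pcna, the sliding clamp, was at 127 and 153 CPM against 158 and 177 CPM, and Rrm2, of ribonucleotide reductase, at 95.9 and 114 CPM against 82.3 and 106 CPM. Mcm5 was at 195 and 199 CPM against 188 and 202 CPM.

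Of 20 genes of G2 and mitosis, 1 was higher (background 9.21%) and 4 lower (background 12.0%) at an unadjusted p under 0.05. None passed in edgeR and 3 passed in DESeq2 (1011 of 15167 over all genes). Their median log2 fold change of -0.19 was -0.02 without cmLumiOpto/PARPi replicate 1, -0.36 without cmLumiOpto/PARPi replicate 2 and -0.08 with upper-quartile factors. Mki67, a marker of cycling cells, was at 281 and 302 CPM in saline and 166 and 206 CPM after treatment (log2 fold change -0.65, adjusted p = 0.143 in edgeR and 0.0201 in DESeq2). After the length correction its log2 fold change was -0.22. Cenpe, a kinetochore motor, was at 96.8 and 96.6 CPM against 56.9 and 68.8 CPM (log2 fold change -0.62, or -0.33 after the length correction, adjusted p = 0.138 in edgeR and 0.0356 in DESeq2), and Birc5, the gene of survivin, at 56.9 and 49.7 CPM against 65.5 and 82.6 CPM (log2 fold change 0.47, adjusted p = 0.205). Relative to the summed S-phase list in place of library size, the log2 ratio of the 64 clustered histone genes was 0.54.

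Markers of lung cells moved with the same groups. All 8 airway markers were higher in both treated libraries, and their sum was 1157 and 83.3 CPM in saline and 5717 and 3137 CPM after treatment. Over all genes tested, 27.4% were higher in both and 27.8% lower in both. Of 8 alveolar type 2 markers, 7 were higher in both and Abca3 was lower in both, with a sum of 1719 and 464 CPM against 8328 and 2973 CPM. Alveolar type 1 markers summed to 287 and 118 CPM against 828 and 404 CPM. The 4T1 epithelial markers summed to 3120 and 3491 CPM in saline and 2766 and 3935 CPM after treatment, and 6 of the 8 overlapped between groups. Granulocyte precursors, which divide, gave marker sums of 17.8 and 12.2 CPM against 5.07 and 40.7 CPM, and macrophage markers 647 and 668 CPM against 505 and 479 CPM. Endothelial, T-cell, B-cell and neutrophil markers summed to 476 and 372, 40.8 and 15.5, 45.9 and 4.16, and 1129 and 469 CPM in saline and to 689 and 369, 81.1 and 22.6, 52.8 and 31.2, and 746 and 1436 CPM after treatment. The mitochondrial share of counts was 1.13% and 1.17% against 2.2% and 1.34%. The part of these cell types in the values of H2bc4, H2bc21, H1f5 and the other members was not tested.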

How the data were processed

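Bulk RNA-seq libraries (2 saline, 2 cmLumiOpto/PARPi) were analysed from the deposited read counts per gene, which the authors made with HISAT2 and left unnormalized; the counter, annotation version, strand setting and treatment of multiply mapped reads are not given in the sources used here. The study's methods name GRCm38 and the submitters' processing notes name mm39. None of the 69 members starts at its GENCODE M21 (GRCm38) position in the table, although 65 have the same length, so table positions are given as mm39 and sequence positions as GRCm38. The study's methods name saline and lung tissue, and the labels PBS and tumour cells.

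Differential expression was tested on the whole table with edgeR 4.0.16 in R 4.3.3 (TMM factors, a filterByExpr minimum of 10 counts, glmQLFit and glmQLFTest at their defaults, two-sided, Benjamini-Hochberg adjustment, threshold 0.05). Standard errors were derived from the F statistic, as the absolute log2 fold change over its square root. DESeq2 1.42.0, other scalings and filters, a replicate block, left-out libraries and a loess correction for length (span 0.5) were alternatives. Counts of replicate libraries differed by more than sampling noise (chi-square per degree of freedom 26.1 in saline and 44.9 after treatment). The steps were tested on simulated data. The members, lists and tests were chosen with earlier results of these data known. The genes named are the 3 members of each class with the highest mean CPM per kilobase, up to 5 members in each direction with the smallest p, 20 listed genes chosen by name, and the gene with the smallest p in each direction in each list. Others (H1f1, H1f4, H1f6 to H1f9, H2ac1, H2bc1, H2bc6, H2bc8, H3c4, Snrpd3, Snrpf, Snrpg, Ncbp2, Cpsf1, Sympk and markers) were named after their values were seen. Histone stem-loops were sought as a paired stem of 6 bases around a loop of 4 bases.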

Additional observations from a re-analysis of the deposited data

How the results depend on the processing

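In place of 0 genes past the threshold, DESeq2 gave 1011, no low-count filter 2000 and the replicate block 1822, and leaving out 1 library gave 0 to 31, with 31 without saline replicate 1. In DESeq2, without a filter and with the replicate block, 1 member passed, H2bc4, with log2 fold changes of 1.57, 1.56 and 1.56; no member passed under the other alternatives, left-out libraries included. The replicate numbers are not said to pair the libraries (Spearman correlation 0.298 between the deviations of same-numbered libraries), so the block, under which H2bc4 had an adjusted p of 0.0278, was kept as an alternative. Without a filter, 12 of 57 members were higher and 6 lower in both treated libraries, against 22.3% and 20.3% of all genes with a count. With the filter these were 6 and 0 of 11, against 27.4% and 27.8% of all genes tested. With 1 library left out, 8 to 10 members had every remaining treated library above every remaining saline library, and 0 to 4 the reverse. The 10 and 4 came without saline replicate 1, and 14 to 15 members then passed the filter. These counts cannot be compared with 6 and 0, because 1 group then holds a single library and groups separate more easily. The share over all genes was not computed for these settings. The median log2 fold change of the 11 tested members, 0.88, was 0.98 with upper-quartile factors and 0.44 after the length correction. It was 0.24 over 57 members without a filter and 0.98 over 9 without the 5 linker histones (chosen after seeing the data). With 1 library left out it was 0.14 to 0.65, lowest without cmLumiOpto/PARPi replicate 2. These values are over the 14 to 15 members that then passed the filter, so the genes change along with the libraries. The summed level of all members had a log2 ratio of -0.50, which ran from -1.03, without cmLumiOpto/PARPi replicate 2, to -0.12, without cmLumiOpto/PARPi replicate 1, and was 0.41 for members of up to 1000 bases. Every sum without the 5 linker histones was chosen after seeing the data: its log2 ratio of 0.34 became 0.16 without saline replicate 1 and up to 0.51 with another library left out, 0.54 relative to the S-phase sum and 0.57 also without H1f2, H2bc4 and H4c9. Directions reversed for H1f2 with upper-quartile factors (0.06), and with 1 library left out values ran from -1.15 to -0.15 for H1f0, which kept its direction, and from -0.26 to 0.16 for H1f2, -0.10 to 0.47 for H1f4 and -0.22 to 0.54 for H4c8. Of 104 values of single members under alternatives, 95 kept their direction and side of the threshold. The cause of these changes was not tested. At 3 counts, depth limits levels to about 0.173 to 0.204 CPM, and the 57 members with a count were tested together only when no filter was applied.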
